A study of Mus musculus with 4 samples.

Results

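The genes described here are the mouse MHC and antigen presentation genes, taken as every gene symbol that starts with H2- together with B2m, Cd74, Ciita, Tap1, Tap2, Tapbp, Psmb8, Psmb9 and Nlrc5. The rule found 43 genes of 31017 symbols, 34 of them with the H2- prefix. Cells sorted from fat and lung of C57BL/6 mice, which the submitters call vessel progenitor cells, were profiled in 4 droplet libraries of transcript 3' ends, 1 each for lung P1, fat P1, lung P2 and fat P2. P1 was sorted as CD45-, Ter119-, Tie2+, PDGFRa-, CD31+, CD105 high and Sca1 low. P2 was sorted as CD45-, Ter119-, Tie2+, PDGFRa+, CD31-, CD105 low and Sca1 high. Every population therefore came from a gate that left out CD45, the leukocyte protein, and Ter119, an erythroid antigen. The number, age and sex of the animals are not given in the sources used here. There was 1 library per group, so no difference below has a replicate check and no test was run. Intervals are 95% exact intervals and cover counting error only.

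MHC class I molecules, a heavy chain paired with beta-2 microglobulin, show peptides from inside the cell to CD8 T cells and are made by nearly all nucleated cells. The peptides are cut by proteasomes, some with interferon-induced subunits, and pumped into the endoplasmic reticulum by the TAP transporter. MHC class II molecules, pairs of an alpha and a beta chain, show peptides from endosomes to CD4 T cells and are made mainly by dendritic cells, macrophages and B cells. Endothelial cells and alveolar type II epithelial cells are known to make class II as well. The invariant chain Cd74 escorts class II, H2-DM loads it, and the coactivators Nlrc5 and Ciita drive class I and class II transcription.

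The data were counts of UMIs (unique molecular identifiers, counted transcripts). The P1 library labelled lung had 652 kept barcodes with 1118642 UMIs, the P1 library labelled fat 1948 with 6510236, lung P2 1436 with 3880015 and fat P2 7898 with 43599072. A list of 12 endothelial markers summed to 10658 CPM (UMIs of a gene scaled to a total of 1000000 UMIs per library) in the P1 library labelled lung, 16669 in the P1 library labelled fat, 679 in lung P2 and 70.8 in fat P2. A list of 12 fibroblast markers summed to 1192 CPM in the P1 library labelled lung, 72.7 in the P1 library labelled fat, 13749 in lung P2 and 48186 in fat P2. These lists thus followed the CD31 and PDGFRa gates. RNA of Ly6a, which encodes Sca1, went against the Sca1 gate in both tissues as labelled. It stood at 1750 CPM in the P1 library labelled lung, 2423 in the P1 library labelled fat, 205 in lung P2 and 1921 in fat P2. Tissue markers went against the labels of the P1 libraries. Fabp4, a fatty acid binding protein of fat capillaries, stood at 12379 CPM in the P1 library labelled lung and 94.2 CPM in the P1 library labelled fat. Foxf1, a forkhead factor of lung mesenchyme and vessels, stood at 3.58 CPM in the P1 library labelled lung and 716 CPM in the P1 library labelled fat. Sftpc, the surfactant protein of lung epithelium, had 0 UMIs in the P1 library labelled lung and 738 CPM in the P1 library labelled fat. Tissue names of the P1 libraries are therefore used as labels, and results on both classes and calls of single genes are also given with the P1 libraries exchanged. With that exchange, Ly6a stood lower in P1 than in P2 in fat and higher in lung. In the P1 library labelled lung, all 12 clusters carried endothelial markers, but fibroblast markers were seen in 87.2% of barcodes at 2000 UMIs. There the variance of class I UMIs over barcodes was 1.07 times their mean, so its barcodes were not shown to be single cells. At most 1 kept barcode sequence was shared by any pair of libraries. Over all deposited barcodes, the P1 library labelled lung shared 54 sequences with fat P2 and 20 with the P1 library labelled fat. The other pairs shared 1 to 8, and the source of the shared sequences was not tested.

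On mm10, 39 members lie on chromosome 17 between bases 33915899 and 37483552, and 4 lie on other chromosomes (B2m on 2, Nlrc5 on 8, Ciita on 16 and Cd74 on 18). Promoter sequences of 5 members from RefSeq (GRCm38.p6) are printed because these genes carry the contrasts below: H2-Aa and H2-Eb1 as class II chains that varied together, H2-Eb2 as a paralog of H2-Eb1 with almost no UMIs, and H2-K1 and B2m as the class I heavy and light chain. Each runs 5' to 3' on the gene's strand, from 250 bases before the start site to 50 after it. Capitals mark the cores of the Y box (ATTGG) and X box (AGCAAC), searched as exact letters on both strands. A box that differs from these letters was left unmarked.
H2-Aa: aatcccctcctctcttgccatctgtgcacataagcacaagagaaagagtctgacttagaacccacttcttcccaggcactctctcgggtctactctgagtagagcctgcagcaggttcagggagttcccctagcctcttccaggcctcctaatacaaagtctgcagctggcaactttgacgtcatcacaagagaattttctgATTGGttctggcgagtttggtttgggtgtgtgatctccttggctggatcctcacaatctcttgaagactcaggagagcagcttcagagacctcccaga
H2-Eb1: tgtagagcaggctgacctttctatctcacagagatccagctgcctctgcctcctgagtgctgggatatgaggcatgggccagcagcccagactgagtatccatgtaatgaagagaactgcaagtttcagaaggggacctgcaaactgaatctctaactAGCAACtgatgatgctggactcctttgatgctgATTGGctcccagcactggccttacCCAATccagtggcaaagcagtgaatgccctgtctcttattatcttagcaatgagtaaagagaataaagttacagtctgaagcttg
H2-Eb2: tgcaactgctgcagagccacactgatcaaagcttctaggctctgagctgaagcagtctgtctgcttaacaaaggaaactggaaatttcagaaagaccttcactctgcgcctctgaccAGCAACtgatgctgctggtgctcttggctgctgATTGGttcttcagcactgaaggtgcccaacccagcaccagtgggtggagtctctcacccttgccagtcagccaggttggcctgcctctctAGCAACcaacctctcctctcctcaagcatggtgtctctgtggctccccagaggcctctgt
H2-K1: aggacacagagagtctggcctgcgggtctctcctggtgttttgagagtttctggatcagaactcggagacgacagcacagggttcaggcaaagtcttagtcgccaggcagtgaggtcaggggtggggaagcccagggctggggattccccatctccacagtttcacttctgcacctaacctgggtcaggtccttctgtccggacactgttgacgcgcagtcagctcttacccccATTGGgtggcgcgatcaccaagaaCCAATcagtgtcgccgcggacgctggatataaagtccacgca
B2m: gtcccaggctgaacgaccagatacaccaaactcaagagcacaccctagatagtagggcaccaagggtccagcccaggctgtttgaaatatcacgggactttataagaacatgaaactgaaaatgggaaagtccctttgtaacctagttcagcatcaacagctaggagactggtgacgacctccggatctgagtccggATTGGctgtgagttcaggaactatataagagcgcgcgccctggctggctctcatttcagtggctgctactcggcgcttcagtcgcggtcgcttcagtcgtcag
The windows lie at chr17:34287774-34288073 on the minus strand (H2-Aa), chr17:34305617-34305916 on the plus strand (H2-Eb1), chr17:34325425-34325724 on the plus strand (H2-Eb2), chr17:34000298-34000597 on the minus strand (H2-K1) and chr2:122147437-122147736 on the plus strand (B2m). The Y box core was found in 32 of the 36 members with a promoter entry and in 37.4% of 32851 promoters. The X box core was found in 6 of 36 members and in 14.8% of promoters. A match describes letters in the window and not a site in use, and a box that differs in a letter was not counted. H2-Eb1 and H2-Eb2 each held the X and Y letters, although their UMIs differed as described below.

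Of the 43 members, 19 reached 50 CPM in at least 1 library, 6 peaked between 10 and 50 CPM, 10 had UMIs but stayed under 10 CPM, and 8 had no UMI in any library. The 8 were H2-M1, H2-M11 and the H2-M10.1, H2-M10.2, H2-M10.3, H2-M10.4, H2-M10.5 and H2-M10.6 genes, class I-like genes of the M region. A count of 0 allows up to 2.68 CPM in the P1 library labelled lung, 0.461 CPM in the P1 library labelled fat, 0.773 CPM in lung P2 and 0.0688 CPM in fat P2. The 10 low members were H2-DMb2, H2-Eb2, H2-M2, H2-M5, H2-M9, H2-Oa, H2-Ob, H2-Q1, H2-Q2 and H2-T3. The highest of them was H2-Ob, the beta chain of H2-O, an inhibitor of H2-DM, at 8.94 CPM in the P1 library labelled lung from 10 UMIs. H2-Eb2 had 1 UMI in the P1 library labelled lung, 1 in the P1 library labelled fat, 0 in lung P2 and 4 in fat P2.

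**Figure D1:**
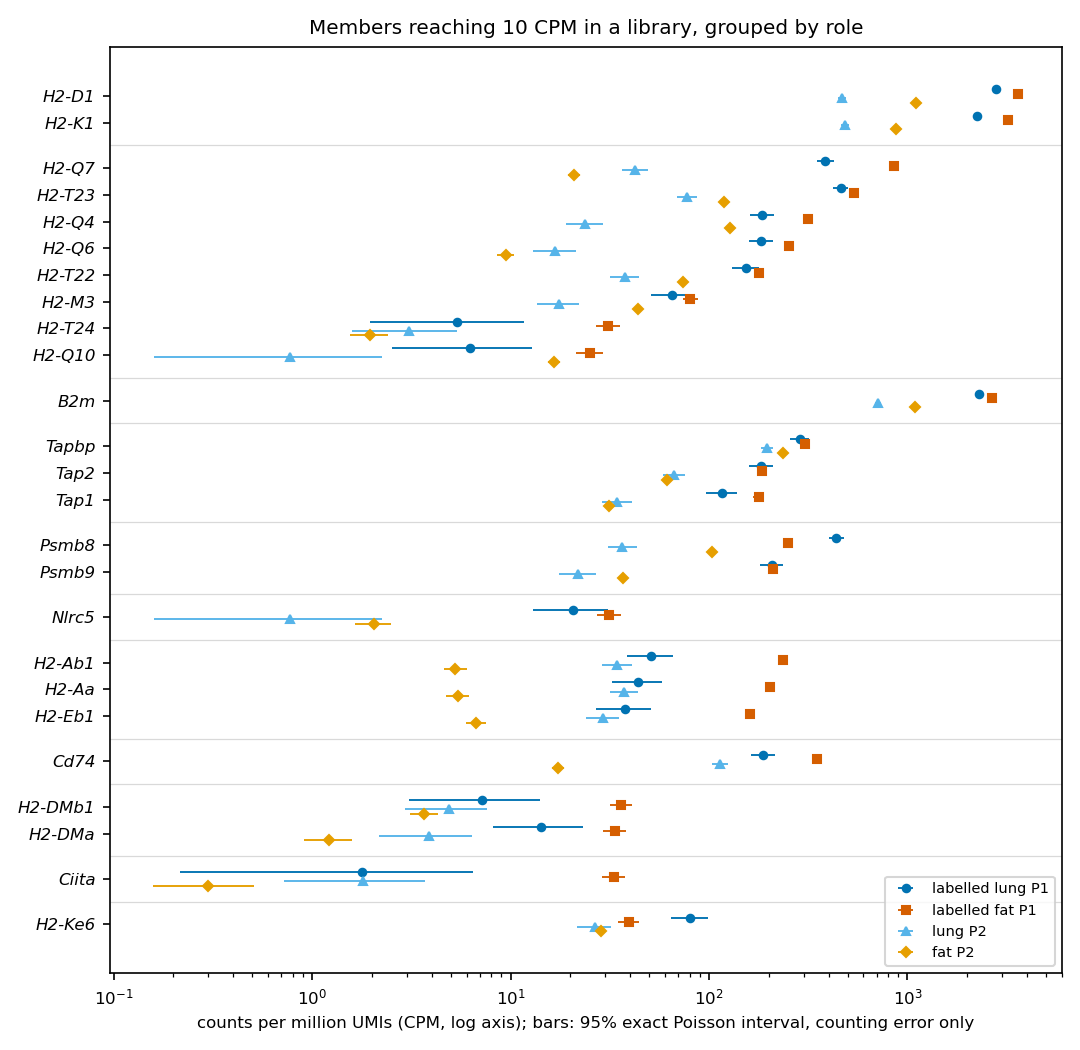
Members that reached 10 CPM in a library, by role, with CPM on a log axis and 95% exact Poisson intervals for counting error. Of the class I genes and their processing partners shown, all but H2-Q10 stood higher in both P1 libraries than in both P2 libraries, while H2-Aa, H2-Ab1, H2-Eb1 and Ciita stood far higher in the P1 library labelled fat than in the other 3.

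Class I heavy chain RNA was high in both P1 libraries and lower in both P2 libraries. The 24 heavy chain genes summed to 6494 CPM (6345 to 6645) in the P1 library labelled lung, 9081 (9008 to 9155) in the P1 library labelled fat, 1171 (1138 to 1206) in lung P2 and 2393 (2379 to 2408) in fat P2. H2-D1, a classical heavy chain, stood at 2803 CPM in the P1 library labelled lung, 3589 in the P1 library labelled fat, 466 in lung P2 and 1101 in fat P2. H2-K1, the other classical heavy chain of this strain, stood at 2240.2 CPM in the P1 library labelled lung, 3206 in the P1 library labelled fat, 485 in lung P2 and 876 in fat P2. The P1 values of these genes lay above both P2 values. B2m, the light chain, followed at 2304 CPM in the P1 library labelled lung, 2665 in the P1 library labelled fat, 712 in lung P2 and 1096 in fat P2. Its P1 and P2 levels lay closer together than those of the heavy chains, with log2 ratios of P1 over P2 of 1.68 in lung and 1.27 in fat, against 2.46 and 1.92 for the summed heavy chains. All log2 ratios were taken after adding 10 CPM to each library.

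Among the nonclassical class I genes, H2-Q7 and H2-Q6 separated the populations most. H2-Q7, a Qa-2 gene, stood at 386 CPM in the P1 library labelled lung, 859 in the P1 library labelled fat, 42.5 in lung P2 and 20.9 in fat P2. H2-Q6, its close relative, stood at 182 CPM in the P1 library labelled lung, 252 in the P1 library labelled fat, 16.8 in lung P2 and 9.45 in fat P2. Neither P2 library came near a P1 library for these genes. H2-T23, which encodes Qa-1, the ligand of NKG2A receptors, stood at 462 CPM in the P1 library labelled lung, 541 in the P1 library labelled fat, 77.8 in lung P2 and 119 in fat P2. H2-Q4 stood at 186 CPM in the P1 library labelled lung, 317 in the P1 library labelled fat, 23.7 in lung P2 and 127 in fat P2. H2-Q4 thus kept in fat P2 a level that H2-Q7 and H2-Q6 did not have there. H2-T22, a ligand of some gamma delta T cell receptors, stood at 153 CPM in the P1 library labelled lung, 179 in the P1 library labelled fat, 37.6 in lung P2 and 74.3 in fat P2. H2-M3, which presents N-formylated peptides, stood at 65.3 CPM in the P1 library labelled lung, 80.3 in the P1 library labelled fat, 17.5 in lung P2 and 44.0 in fat P2. Of the class I genes that reached 50 CPM, H2-M3 had the lowest level in each P1 library. H2-T24 and H2-Q10 peaked at 31.0 and 25.0 CPM, each in the P1 library labelled fat. Near-identical 3' ends can split reads between class I genes. Of the 410 windows of 91 bases in a gene's last 500 bases, 25.9% recurred in another gene for H2-T22 (H2-T10), 12.9% for H2-T23, 10.5% for H2-Q6 and 9.27% for H2-Q4, and none did for H2-K1, H2-D1, H2-Q7 and B2m, so the H2-T22 level is the least certain.

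The genes that make and carry class I peptides differed by step. Psmb8, an interferon-induced proteasome subunit, stood at 438 CPM in the P1 library labelled lung, 251 in the P1 library labelled fat, 36.6 in lung P2 and 103 in fat P2. Psmb9, another such subunit, stood at 206 CPM in the P1 library labelled lung, 209 in the P1 library labelled fat, 21.9 in lung P2 and 36.7 in fat P2. Psmb8 gave the largest log2 ratio of P1 over P2 of all members in lung, 3.27, against 1.21 in fat. Tap1, a subunit of the TAP transporter, stood at 116 CPM in the P1 library labelled lung, 178 in the P1 library labelled fat, 34.5 in lung P2 and 31.3 in fat P2. Tap2, its partner, stood at 183 CPM in the P1 library labelled lung, 186 in the P1 library labelled fat, 66.8 in lung P2 and 61.3 in fat P2. Tapbp (tapasin), which bridges TAP and class I, stood at 287 CPM in the P1 library labelled lung, 304 in the P1 library labelled fat, 196 in lung P2 and 237 in fat P2. Tapasin thus varied least of these genes. Nlrc5, the class I coactivator, stood at 20.6 CPM (13.0 to 30.9) in the P1 library labelled lung, 31.5 (27.3 to 36.1) in the P1 library labelled fat, 0.773 (0.159 to 2.26) in lung P2 and 2.04 (1.64 to 2.51) in fat P2. The P1 and P2 intervals of Nlrc5 did not meet.

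Class II RNA had another order. H2-Aa, the alpha chain of I-A, stood at 43.8 CPM in the P1 library labelled lung, 203 in the P1 library labelled fat, 37.4 in lung P2 and 5.41 in fat P2. H2-Ab1, its beta chain, stood at 51.0 CPM in the P1 library labelled lung, 236 in the P1 library labelled fat, 34.5 in lung P2 and 5.28 in fat P2. H2-Eb1, the beta chain of I-E, whose alpha chain gene is defective in C57BL/6, stood at 37.5 CPM in the P1 library labelled lung, 161 in the P1 library labelled fat, 29.1 in lung P2 and 6.70 in fat P2. All of these chains were highest in the P1 library labelled fat and lowest in fat P2, and the P1 library labelled lung and lung P2 lay close together. Summed with H2-Eb2, the class II chains held 133 CPM (113 to 156) in the P1 library labelled lung, 601 (582 to 619.7) in the P1 library labelled fat, 101 (91.3 to 112) in lung P2 and 17.5 (16.3 to 18.8) in fat P2. Class I heavy chain UMIs exceeded class II UMIs by 48.8 times in the P1 library labelled lung, 15.1 times in the P1 library labelled fat, 11.6 times in lung P2 and 137 times in fat P2. UMI counts of 3' ends carry no length term, but capture may differ between genes, so these ratios compare RNA counts and not protein.

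The partners of class II followed in part. Ciita stood at 1.79 CPM (0.217 to 6.46, 2 UMIs) in the P1 library labelled lung, 33.2 (28.9 to 37.9, 216 UMIs) in the P1 library labelled fat, 1.80 (0.725 to 3.72, 7 UMIs) in lung P2 and 0.298 (0.159 to 0.51, 13 UMIs) in fat P2. Its interval in the P1 library labelled fat lay above those of the other 3 libraries. H2-DMa, the alpha chain of the peptide loader H2-DM, stood at 14.3 CPM in the P1 library labelled lung, 33.5 in the P1 library labelled fat, 3.87 in lung P2 and 1.22 in fat P2. H2-DMb1, a beta chain of H2-DM that shares 12.4% of its windows with H2-DMb2, stood at 7.15 CPM in the P1 library labelled lung, 36.1 in the P1 library labelled fat, 4.90 in lung P2 and 3.67 in fat P2. The H2-DM chains were also highest in the P1 library labelled fat. Cd74 stood at 187 CPM (162 to 214) in the P1 library labelled lung, 348 (334 to 363) in the P1 library labelled fat, 114 (104 to 125) in lung P2 and 17.3 (16.1 to 18.6) in fat P2. For each UMI of the class II chains there were 1.40 Cd74 UMIs in the P1 library labelled lung, 0.580 in the P1 library labelled fat, 1.13 in lung P2 and 0.991 in fat P2. H2-Ke6, a steroid dehydrogenase gene with an H2- symbol and no part in presentation, stood at 80.5 CPM in the P1 library labelled lung, 39.3 in the P1 library labelled fat, 26.5 in lung P2 and 28.6 in fat P2, with 36.8% of its windows shared with Gm20427.

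In the comparison of P1 with P2, a gene was counted when it had at least 50 CPM in 1 of the 2 libraries and a log2 ratio of at least 4-fold. In fat as labelled, 9 of 18 members passed as higher in P1 and 0 as lower, where 12.4% of all genes were higher and 10.1% lower. The 9 were H2-Q7 (log2 4.81), H2-Ab1 (4.01), H2-Aa (3.79), H2-Q6 (3.75), Cd74 (3.71), H2-Eb1 (3.36), Psmb9 (2.23), Tap1 (2.18) and H2-T23 (2.09). The 18 members had a median of 1.98, against 0.38 over the 4727 genes. Scaling by the trimmed mean of M-values moved that overall median to -0.20 and the split of all genes from 586 higher and 479 lower to 451 and 642, and then 6 members were at least 4-fold higher. In lung as labelled, 8 of 17 members passed as higher in P1 and 0 as lower, where 8.45% of all genes were higher and 11.8% lower. The 8 were Psmb8 (3.27), H2-Q7 (2.92), H2-Q6 (2.85), Psmb9 (2.76), H2-D1 (2.56), H2-Q4 (2.54), H2-T23 (2.43) and H2-K1 (2.18). Their median was 1.77, against -0.12 over 4791 genes. H2-Q6, H2-Q7, H2-T23 and Psmb9 were the 4 members at least 4-fold higher in both tissues as labelled. With the P1 libraries exchanged, 12 of 18 members were at least 4-fold higher over lung P2, where 8.90% of all genes were, and 4 of 17 over fat P2, where 9.97% were. The 4 over fat P2 were H2-Q7, H2-Q6, Cd74 and Psmb9. There H2-Ab1, H2-Aa, H2-Eb1, Tap1 and H2-T23 no longer passed, while all of these were among the 12 over lung P2. H2-Q6, H2-Q7 and Psmb9 thus passed in both tissues with either assignment of the P1 libraries. The share of all genes that passed in both tissues is not given here, so these overlaps have no background.

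**Figure D2:**
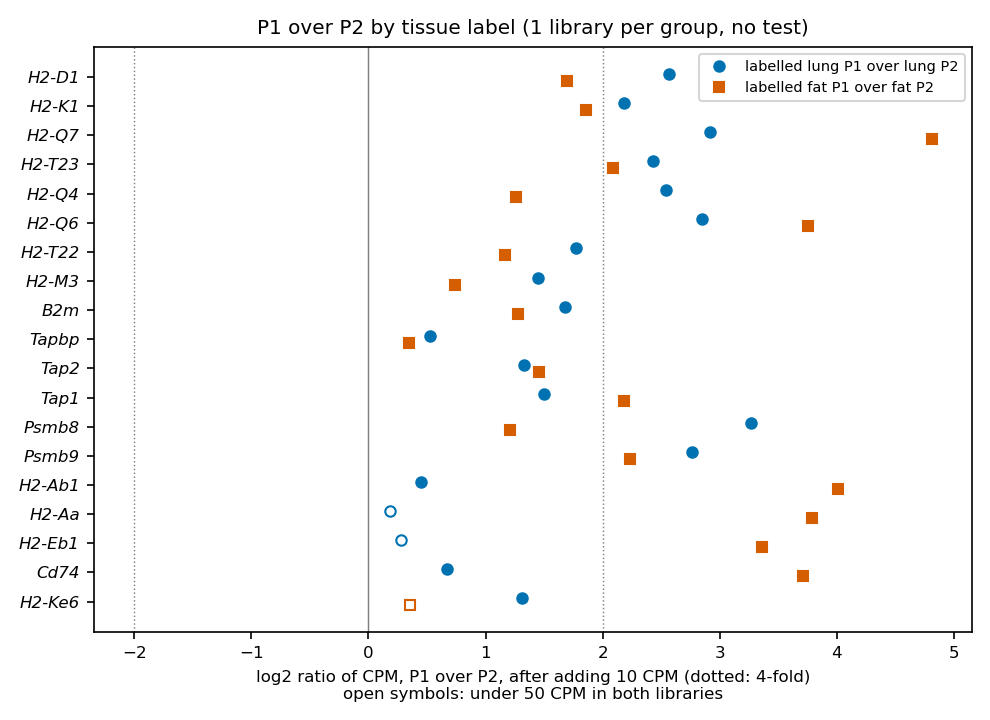
Log2 ratios of P1 over P2 after adding 10 CPM, for each member that reached 50 CPM in P1 or P2 of either tissue; circles are the P1 library labelled lung over lung P2, squares the P1 library labelled fat over fat P2. Class I genes lay between 0.74 and 4.81 in both tissues, while H2-Ab1, H2-Aa, H2-Eb1 and Cd74 lay above 3 in fat and below 1 in lung.

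Class I and class II parted in this comparison. The summed class I heavy chains gave a log2 ratio of P1 over P2 of 2.46 in lung and 1.92 in fat as labelled, and 2.94 in lung and 1.44 in fat with the P1 libraries exchanged. The class II chains gave 0.37 in lung and 4.47 in fat as labelled, and 2.46 in lung and 2.38 in fat with the P1 libraries exchanged. As labelled the tissues thus lay far apart in class II, and with the exchange close together. Leaving out every barcode with a UMI of a 40-gene leukocyte list moved the class II ratio to 1.46 in lung and 5.45 in fat. Comparing the endothelial-like clusters of P1 with the fibroblast-like clusters of P2 moved it to 2.25 in lung and 5.26 in fat, and using all deposited barcodes moved it to -0.20 in lung and 4.27 in fat. In lung, the class II ratio therefore changed with the set of barcodes counted, and its sign with it. The class I ratio in lung lay between 2.28 and 2.99 under all alternatives tried.

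Between tissues few members passed the size rule, and the counts lay near the shares of all genes. In P1 as labelled, 0 of 19 members were at least 4-fold higher in lung and 1 was lower, H2-Ab1 with a log2 ratio of lung over fat of -2.02, where 5.28% of all genes were higher and 5.71% lower. With the P1 libraries exchanged these directions turn, and H2-Ab1 is higher in lung (2.02), as are the class II chains (2.09). The H2-Ab1 call was also lost with all deposited barcodes, in endothelial-like clusters alone, with the mean of barcode CPM and with TMM scaling. H2-Aa (-1.98), H2-Eb1 (-1.85) and Cd74 (-0.86) were lower as well, and Psmb8 was higher (0.78). The class II chains together had a log2 ratio of -2.09 and the class I heavy chains of -0.48, where the median of all 4605 genes was -0.31. In P2, 1 of 10 members was at least 4-fold higher in lung, Cd74 (2.18), and 1 was lower, H2-Q4 (-2.02), where 8.24% of all genes were higher and 4.79% lower. The Cd74 call was lost without barcodes with a leukocyte UMI, in fibroblast-like clusters alone, with the mean of barcode CPM and with TMM scaling, and the H2-Q4 call with barcodes of at least 2000 UMIs. The class I heavy chains of P2 were lower in lung, with a log2 ratio of -1.02, and the class II chains higher, at 2.01, where the median of all 4323 genes was 0.15. The class II value in P2 was 1.09 in fibroblast-like clusters alone and 0.75 when each barcode was scaled first and then averaged.

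The barcodes were next examined one by one, each thinned to 2000 UMIs, with shallower barcodes left out (488 in the P1 library labelled lung, 457 in the P1 library labelled fat, 658 in lung P2 and 707 in fat P2). At least 1 class I heavy chain UMI was seen in 164 of 164 barcodes in the P1 library labelled lung, 99.9% in the P1 library labelled fat, 76.1% (72.9 to 79.1) in lung P2 and 96.9% in fat P2. The mean was 12.6 UMIs per barcode in the P1 library labelled lung, 18.5 in the P1 library labelled fat, 2.0 in lung P2 and 4.78 in fat P2. Class I RNA was thus found in nearly every P1 barcode. At least 1 class II UMI was seen in 23.2% (16.9 to 30.4) of barcodes in the P1 library labelled lung, 37.8% (35.4 to 40.3) in the P1 library labelled fat, 3.86% (2.62 to 5.46) in lung P2 and 1.28% (1.03 to 1.57) in fat P2. Without thinning the share was 19.6% in the P1 library labelled lung, 42.8% in the P1 library labelled fat, 4.94% in lung P2 and 2.53% in fat P2. Fibroblast-like clusters held a class II UMI in 1.64% of barcodes in lung P2 and 1.0% in fat P2, at unthinned median depths of 2039 and 5206 UMIs. Whether these UMIs came from the cells themselves or from free RNA was not tested.

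**Figure D3:**
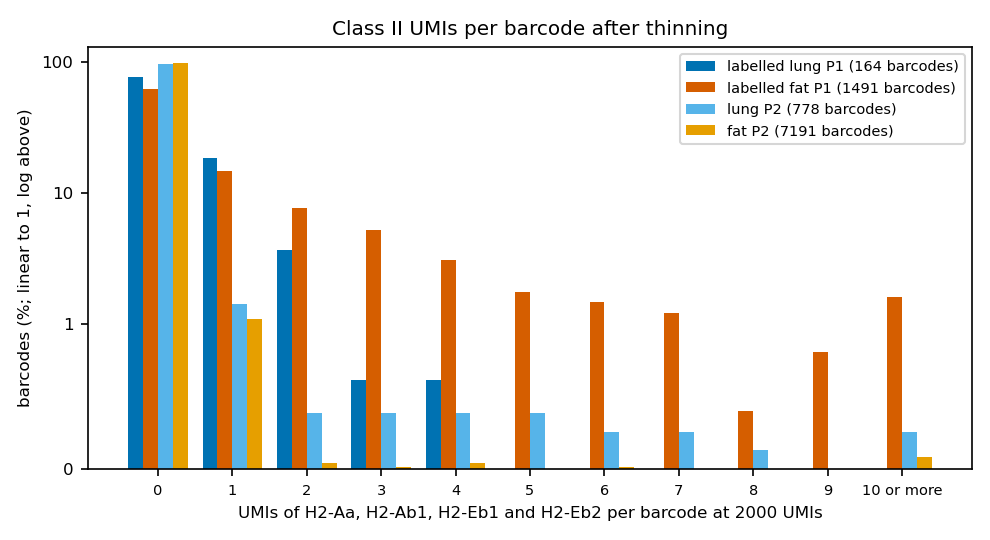
Share of barcodes by their UMIs of H2-Aa, H2-Ab1, H2-Eb1 and H2-Eb2 after thinning to 2000 UMIs (linear to 1%, log above). Of the barcodes of the P1 library labelled fat, 15.5% held 3 or more class II UMIs and 1.61% held 10 or more, while in the P1 library labelled lung no barcode held more than 4.

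Class II UMIs were unevenly spread over barcodes in 3 libraries. The variance of class II UMIs was 8.41 times the mean in the P1 library labelled fat, 7.65 times in lung P2 and 12.1 times in fat P2, but 1.32 times in the P1 library labelled lung. There 38 of 164 barcodes held a class II UMI, 2 of them 3 or more, so class II in that library was not shown to belong to a subset of barcodes. In the P1 library labelled fat, H2-Ab1 was seen in 54.9% of the 293 barcodes with Cd74 and in 15.7% of those without it. H2-Aa was seen in 53.9% of the 349 barcodes with H2-Ab1 and in 11.8% of those without it, so the chains of I-A were found together. In the P1 library labelled lung, Cd74 was seen in 7 of the 16 barcodes with H2-Aa, 43.8%, and in 31.1% of those without it.

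Leukocyte RNA was measured beside these values. Ptprc, which encodes CD45, stood at 18.8 CPM in the P1 library labelled lung, 4.45 in the P1 library labelled fat, 4.38 in lung P2 and 1.33 in fat P2. The B cell gene Cd79a stood at 17 CPM in the P1 library labelled lung, 8.6 in the P1 library labelled fat, 13.4 in lung P2 and 3.07 in fat P2. The myeloid gene Lyz2, which type II alveolar cells also express, stood at 68.8 CPM in the P1 library labelled lung, 59.4 in the P1 library labelled fat, 444 in lung P2 and 1.40 in fat P2. Leukocyte RNA was thus present in each library after the CD45- gate. Itgax, which encodes CD11c, had 0 UMIs in every library but lung P2, where it had 1. Cd3e of T cells stood at 3.58 CPM in the P1 library labelled lung, 0 in the P1 library labelled fat, 0.258 in lung P2 and 6.95 in fat P2. Of the 40 markers, 13 had no UMI in the P1 library labelled lung, 8 in the P1 library labelled fat, 10 in lung P2 and 6 in fat P2. Without Zbtb46, also an endothelial gene, and Lyz2, the list summed to 253 CPM in the P1 library labelled lung, 117 in the P1 library labelled fat, 132 in lung P2 and 67.8 in fat P2. In the P1 library labelled fat, such a UMI was seen in 3.90% (1.80 to 7.27) of the 231 barcodes with 3 or more class II UMIs and in 2.59% (1.67 to 3.83) of the 927 with none. In fat P2 it was seen in 11 of the 11 barcodes with 3 or more class II UMIs and in 3.79% (3.36 to 4.26) of those with none. In the P1 library labelled lung it was seen in 58.3% (40.8 to 74.5) of the 36 barcodes with 1 or 2 class II UMIs and in 35.7% (27.4 to 44.7) of the 126 with none. Among fat P2 barcodes with 1 or 2 class II UMIs it was seen in 11 of 81, 13.6% (6.98 to 23.0). In lung P2 it was seen in 2 of the 16 barcodes with 3 or more class II UMIs, 0 of the 14 with 1 or 2 and 2.01% (1.13 to 3.29) of those with none. The intervals of class II barcodes and of the others thus overlapped in the P1 library labelled fat. In fat P2 the barcodes with 1 or 2 and with 3 or more class II UMIs both lay above those with none. The share of class II RNA that came from leukocytes was not tested.

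Clusters were made within each library without the members, so that their levels did not shape the clusters. In the P1 library labelled fat, class II RNA was high in every endothelial-like cluster but 1. A cluster led by the interferon-induced GTPase genes Igtp, Iigp1 and Gbp4 (217 barcodes) held 1013 CPM (941 to 1089) of class II chains and 10236 CPM of class I heavy chains. A cluster led by Fabp4, Timp4 and Fabp5 (302 barcodes) held 1005 CPM (945 to 1067) of class II and 11673 CPM of class I. At a finer cluster resolution, given below, the cluster led by these genes had 11 barcodes and 233 CPM of class II (116 to 417). The levels of the 302 barcodes are thus not shown to be those of cells high in Fabp4. An unnamed cluster led by Igkc, Ccl5 and Gzma (181 barcodes) held the most class II, 1362 CPM (1276 to 1453), with 951 CPM of leukocyte markers. In the first of these endothelial-like clusters leukocyte markers stood at 12.4 CPM, and Ptprc had 0 UMIs. The cluster lowest in class II was led by Fibin, Ednrb and Chst1 and was aerocyte-like by the marker list (425 barcodes), aerocytes being the capillary cells of gas exchange in the lung. It held 36.9 CPM (28.2 to 47.4) of class II, and 1.71% of its thinned barcodes (0.630 to 3.68) held a class II UMI.

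The aerocyte-like cluster was not low in class I. Its class I heavy chains stood at 9372 CPM and its B2m at 2706 CPM, within the range of the other 8 endothelial-like clusters for the heavy chains (7670.2 to 11673 CPM). It held 21.8% of the barcodes, 26.2% of the class I UMIs and 1.56% of the class II UMIs of its library. The other 8 endothelial-like clusters held 219.7 to 1013 CPM of class II, with a class II UMI in 27.3% to 64.8% of thinned barcodes. Ciita was low in the aerocyte-like cluster, with 1 UMI (0.605 CPM), and stood at 8.62 to 114 CPM in the other 8, with the highest level in the Igtp cluster. Whether Ciita rose with class II among the other 8 was not tested. Nlrc5 stood at 39.3 CPM in the aerocyte-like cluster and 17.2 to 57.8 CPM in the other 8. H2-DMa stood at 0.605 CPM in the aerocyte-like cluster, 62.0 CPM in the Igtp cluster and 67.9 CPM in the Fabp4 cluster. H2-DM and Ciita were thus low where the class II chains were low, while Nlrc5 and the class I chains were not. These are levels in clusters of 1 library, with no test. The part of free RNA in them was not tested.

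**Figure D4:**
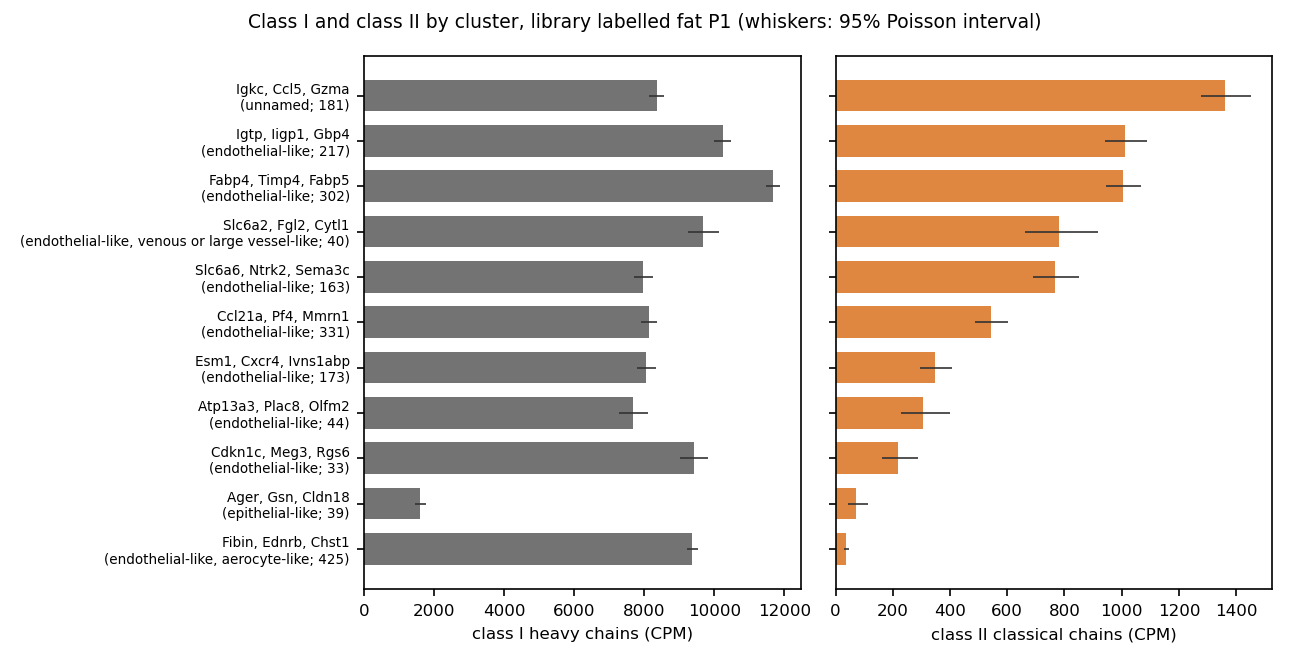
Class I heavy chains (left) and class II classical chains (right) in CPM for the 11 clusters of the P1 library labelled fat, each named by its 3 leading genes with its number of barcodes; whiskers are 95% Poisson intervals for counting error. Class I was 7670.2 CPM or more in every cluster but the one named epithelial-like by the marker list (1594 CPM, not shown to be epithelial alone), while class II ranged from 36.9 to 1362 CPM.

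At a finer cluster resolution of 2, chosen after the data were seen, the contrast was sharper. Ednrb was a leading gene of 3 endothelial-like clusters, which held 10.95, 18.3 and 18.4 CPM of class II, and the other 17 endothelial-like clusters held 201 to 1139.9 CPM. At that resolution 37 barcodes led by the surfactant genes Sftpa1, Sftpc and Sftpd formed a cluster of their own with 929 CPM of class II. The cluster led by Fabp4, Timp4 and Fabp5 then had 6840 CPM of class I and 0 CPM of H2-DMa in its 11 barcodes. At a coarser resolution of 0.5 the aerocyte-like cluster, then of 456 barcodes, held 59.6 CPM. At resolution 1 the aerocyte-like cluster had Sftpa1 and Sftpc among its 10 leading genes and 2439 CPM of Sftpc. At resolution 0.5 it had 2152 CPM of Sftpc, and at resolution 2 the clusters led by Ednrb had 93.1 to 138 CPM. The part of epithelial RNA in its class II value was not tested. At resolution 2 a cluster of 20 barcodes led by Ager, Cldn18 and Col4a4 held 1353 CPM of class I. A cluster of 19 barcodes led by Inmt, Gsn and Acta2 held 2051 CPM. The class I level of the epithelial-like cluster at resolution 1, of 39 barcodes, is thus not shown to be that of epithelial cells alone.

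The balance of Cd74 to class II chains also differed by cluster. Cd74 UMIs per class II UMI numbered 0.474 in the Igtp cluster, 0.445 in the Fabp4 cluster and 0.358 in the cluster led by Atp13a3 and Plac8, the lowest of the library. The ratio was 0.829 in the unnamed cluster led by Igkc, 1.11 in the venous-like cluster led by Slc6a2 and 1.28 in the aerocyte-like cluster. At resolution 2 the clusters led by Ednrb (137, 180 and 109 barcodes) held 9, 3 and 1 Cd74 UMIs and 6, 14 and 6 class II UMIs. The cluster led by Sftpa1 then had a ratio of 1.01. The ratio of 1.28 is thus not shown to be that of aerocyte-like cells alone. In lung P2 it was 0.50 in the endothelial-like cluster, 1.61 in the epithelial-like cluster and 1.44 in the cluster of B cell genes. In fat P2 it was 1.24 in the cluster that held most of the class II UMIs. Among the clusters of the P1 library labelled lung, all endothelial-like, the ratio was 0.960 and 1.65 in the clusters with at least 20 class II UMIs, and was not computed in the others. Endothelial-like clusters thus lay on both sides of the unnamed cluster led by Igkc.

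In the P2 libraries class II sat in a few small clusters. In fat P2, an unnamed cluster of 52 barcodes led by Ccl5, S100a8 and S100a9 held 77.0% of all class II UMIs, at 2648 CPM, with 3284 CPM of Cd74 and 58.6 CPM of Ciita. Its leukocyte markers stood at 8765 CPM. The 15 fibroblast-like clusters, 7490 barcodes, held 4.09 CPM (3.50 to 4.75) of class II, 0 UMIs of Ciita and 2390.1 CPM of class I. A fibroblast-like cluster led by Ifit1, Rsad2 and Ifit3, genes induced by interferon, held 2966 CPM of class I, 4.29 CPM of Nlrc5 and 4.86 CPM of class II. The fat fibroblast-like clusters thus held class I RNA throughout and hardly any class II RNA.

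In lung P2, 3 clusters of 54 barcodes in all held 83.4% of the class II UMIs. An endothelial-like cluster (26 barcodes, led by Ptprb, Vwf and Hpgd) held 526 CPM (433 to 633) of class II and 6435 CPM of class I, close to the class I level of the P1 library labelled lung. An epithelial-like cluster (20 barcodes, led by Ager, Sftpa1 and Sftpc) held 911 CPM (744 to 1104) of class II, 1463 CPM of Cd74 and 1787 CPM of class I. An unnamed cluster of 8 barcodes led by Igkc, Ighm and Iglc1 held 3843 CPM of class II and 5539 CPM of Cd74. The 8 fibroblast-like clusters (1191 barcodes) held 20.05 CPM (15.3 to 25.9) of class II, 0 UMIs of Ciita and 811 CPM (779 to 844) of class I, and a mural-like cluster 24.7 CPM and 674 CPM. The highest fibroblast-like cluster, led by Scara5, Dcn and Lum, held 60.4 CPM of class II and 1433 CPM of class I. The lung P2 class II level was thus carried mainly by cells outside the fibroblast-like clusters.

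**Figure D5:**
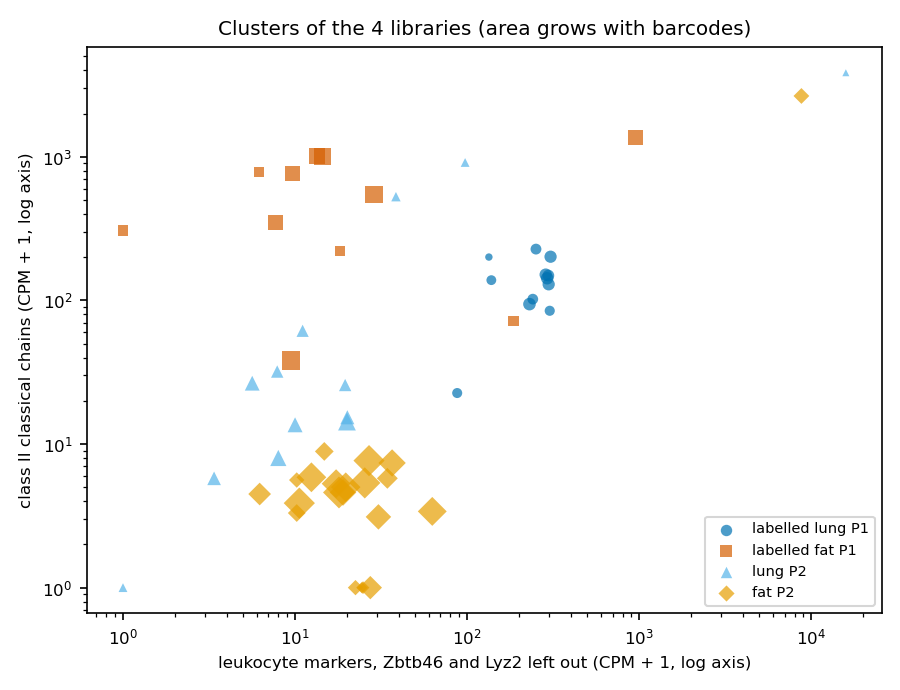
Class II chains against leukocyte markers (Zbtb46 and Lyz2 left out) for the 57 clusters of the 4 libraries, both in CPM plus 1 on log axes, with larger symbols for more barcodes. The endothelial-like clusters of the P1 library labelled fat combine 219.7 to 1013 CPM of class II with few leukocyte UMIs, apart from the low aerocyte-like cluster, and the cluster with the most class II lies at 15891 CPM of leukocyte markers in lung P2 and at 8765 CPM in fat P2.

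The factors that act on class II promoters with Ciita did not separate the libraries as widely as Ciita did. Rfx5 stood at 9.83 CPM in the P1 library labelled lung, 10.8 in the P1 library labelled fat, 12.6 in lung P2 and 7.04 in fat P2. The other RFX subunits, Rfxap and Rfxank, ranged from 8.0 to 50.1 CPM, and the NFY subunits Nfya, Nfyb and Nfyc from 19.7 to 45.0 CPM over the 4 libraries. Creb1, which binds the X2 box, stood at 43.8 CPM in the P1 library labelled lung, 134 in the P1 library labelled fat, 88.7 in lung P2 and 43.4 in fat P2. Like Ciita, Creb1 was thus highest in the P1 library labelled fat. Its levels in the P1 library labelled lung and in fat P2 lay close together. These factors were present in every library. Irf1, an interferon-induced factor of class I genes, stood at 231 CPM in the P1 library labelled lung, 172 in the P1 library labelled fat, 41.8 in lung P2 and 111 in fat P2. Irf2, Irf9 and Stat2 ranged from 35.3 to 207 CPM, and Irf8, a factor of myeloid and B cells, was highest in lung P2 at 92.8 CPM. Of this list of 20 genes, 1 of 13 was at least 4-fold higher in P1 in lung (Irf1, log2 2.22) and 0 of 11 in fat, where 8.45% of all genes were higher in lung and 12.4% in fat, with medians of -0.02 in lung and 0.86 in fat. With the P1 libraries exchanged Irf1 was at 1.82 in lung and no longer passed.

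The other genes of the pathway were counted by the same rule. For P1 over P2 as labelled, 8.45% of all genes were higher and 11.8% lower in lung, and 12.4% and 10.1% in fat. Counts of 0 in lists this short are not shown to differ from those shares. Of the constitutive proteasome subunits 0 of 5 passed the size rule in any comparison, with median log2 ratios of P1 over P2 of 1.12 in lung and 0.37 in fat. Psmb10, the remaining immunoproteasome subunit, stood at 241 CPM in the P1 library labelled lung, 228 in the P1 library labelled fat, 59.8 in lung P2 and 74.2 in fat P2, and Psme1, a proteasome activator, was at least 4-fold higher in P1 in lung (2.14), but not with the P1 libraries exchanged (1.40). Of the genes for folding, trimming and loading in the endoplasmic reticulum, 0 of 8 in lung and 0 of 10 in fat were counted, with the trimming enzyme gene Erap1 at 84.6 CPM in the P1 library labelled fat and 30.8 in fat P2. Of the endosomal proteases and lysosomal genes, 3 of 8 were at least 4-fold lower in P1 in fat, Ctsh (log2 -2.46), Ctsl (-2.17) and Ctsb (-2.06), and 0 were higher, where 10.1% of all genes were lower. Ctsd stood at 0.39 and Lgmn at 0.29, and with the P1 libraries exchanged only Ctsl passed (-2.02). Of the class I-like genes outside H2, Procr, the endothelial protein C receptor, was at least 4-fold higher in P1 in lung (2.63) and lower in fat (-4.22), and Fcgrt, the neonatal Fc receptor, was lower in fat (-2.70). With the P1 libraries exchanged neither passed: Procr stood under 50 CPM in both libraries in lung and at -1.53 in fat, and Fcgrt at -0.87 in fat. Of the costimulatory and checkpoint ligands, Cd200, which inhibits myeloid cells, was at least 4-fold higher in P1 in both tissues, at 720 CPM in the P1 library labelled lung and 59.0 in lung P2, and at 435 CPM in the P1 library labelled fat and 66.6 in fat P2. It passed with the P1 libraries exchanged as well (2.69 in lung and 3.25 in fat). Cd40, a receptor that activates antigen-presenting cells, was at least 4-fold lower in P1 in lung (-2.12), but not with the P1 libraries exchanged (-1.06). Cd80, Cd86 and the other ligands of the list apart from Cd200, Vsir and Cd40 stayed under 50 CPM in every library. Of 15 interferon-induced genes, 6 of 12 were at least 4-fold higher in P1 in lung and 0 lower, and 2 of 10 were higher and 1 lower in fat, where 8.45% of all genes were higher in lung, and 12.4% higher and 10.1% lower in fat. The fat counts lie near those shares. With the P1 libraries exchanged 3 of 8 were higher in lung and 3 of 13 in fat, and 0 were lower in either. Gbp4, a guanylate binding protein gene, was among those higher in both, at 131 CPM in the P1 library labelled lung and 5.41 in lung P2, and at 202 CPM in the P1 library labelled fat and 3.05 in fat P2. Cxcl10, a chemokine gene and the 1 lower in fat, stood at 0.614 CPM in the P1 library labelled fat and 60.3 CPM in fat P2, and did not pass with the P1 libraries exchanged (-0.87).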

How the data were processed

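RNA 3' ends of sorted cells were counted in 4 libraries, 1 per group, made with a 10x Genomics Chromium 3' v3.1 kit per the labels' protocols. Cell Ranger 3.1.0 and the build mm10 are named in the submitters' processing notes. The deposited matrices hold counts, UMIs per gene and barcode that the authors left unnormalized, and gene IDs with a common symbol were added up. Kept barcodes had 1000 or more UMIs, 500 or more genes and no more than 10% mitochondrial UMIs. UMIs were summed per library and scaled to CPM. No test was possible with 1 library per group: a size rule of 4-fold after adding 10 CPM was applied to genes that reached 50 CPM in either library compared, and was tested on simulated data. CPM have exact Poisson and shares exact Clopper-Pearson 95% intervals, a count of 0 a limit of 3 counts, all for counting error only. PCR copies are collapsed by UMIs, but barcodes of 1 library are not replicates. The libraries held 1118642 to 43599072 kept UMIs.

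Clusters (scanpy 1.11.5) used 2000 variable genes without the members, 30 components, 15 neighbours and Leiden resolution 1, and were named from marker lists when at least 3 markers reached 100 CPM. Doublets were not removed in the values reported. Scrublet's automatic threshold marked 0 of 7898 barcodes in fat P2, so an alternative removed the highest scores, 0.8% per 1000 barcodes. TMM factors came from edgeR 4.0.16. Gene positions came from GENCODE vM21, the promoters from RefSeq. Members at 50 CPM or more in a library are given in all 4 libraries, the others by counts and ranges, and from each related list up to 4 genes with the largest ratios, not all of which are printed. Ifi30 of the related lists was not used here, and 1 gene of the transcription factor list is not reported here. The members and all lists were chosen with earlier results of these data known.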

Additional observations from a re-analysis of the deposited data

How the results depend on the processing

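Class I and class II log2 ratios were each computed under every alternative, and 3 of 70 values took the other sign: the class II ratio of P1 over P2 in lung with all deposited barcodes, and both ratios of lung over fat in P1 with the P1 libraries exchanged, which turns them by construction. In what follows P1/P2 stands for P1 over P2 and lung/fat for lung over fat, as labelled, and each value is a log2 ratio unless a count or share is named. With all deposited barcodes class I was 2.57 for P1/P2 in lung, 1.77 for P1/P2 in fat, -0.34 for lung/fat in P1 and -1.13 for lung/fat in P2, class II was -0.20 for P1/P2 in lung, 4.27 for P1/P2 in fat and 2.60 for lung/fat in P2, and 0 members were 4-fold lower for lung/fat in P1 and 2 higher in P2. With at least 2000 UMIs per barcode class I was 2.28 for P1/P2 in lung and -0.87 for lung/fat in P2, class II was 4.86 for P1/P2 in fat and 2.61 for lung/fat in P2, and 0 members were lower for lung/fat in P2. Without barcodes with a leukocyte UMI class I was 2.64 for P1/P2 in lung, 1.97 in fat, -0.55 for lung/fat in P1 and -1.22 in P2, class II was 1.46 for P1/P2 in lung, 5.45 in fat and 1.72 for lung/fat in P2, and 2 members were lower for lung/fat in P1 and 0 higher in P2. The share of barcodes with class II was then 16.7% in the P1 library labelled lung, 41.6% in the P1 library labelled fat, 1.92% in lung P2 and 1.0% in fat P2. With Zbtb46 and Lyz2 not counted, a choice made after the data were seen, class I was 2.62 for P1/P2 in lung, 1.95 in fat, -0.54 for lung/fat in P1 and -1.20 in P2, class II was 0.84 for P1/P2 in lung, 5.29 in fat and 2.34 for lung/fat in P2, and the class II share was 16.9% in the P1 library labelled lung and 1.01% in fat P2.

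With endothelial-like P1 and fibroblast-like P2 clusters class I was 2.99 for P1/P2 in lung, 1.99 in fat, -0.55 for lung/fat in P1 and -1.55 in P2, class II was 2.25 for P1/P2 in lung, 5.26 in fat and 1.09 for lung/fat in P2, and 0 members were lower for lung/fat in P1 and 0 higher in P2. With the mean of barcode CPM class I was 2.84 for P1/P2 in lung and -1.39 for lung/fat in P2, class II was 0.94 for P1/P2 in lung, 3.72 in fat and 0.75 for lung/fat in P2, and again 0 members were lower for lung/fat in P1 and 0 higher in P2. With TMM scaling class I was 2.53 for P1/P2 in lung, 1.41 in fat, -0.40 for lung/fat in P1 and -1.49 in P2, class II was 4.06 for P1/P2 in fat and 1.65 for lung/fat in P2, and 0 members were lower for lung/fat in P1 and 0 higher in P2. TMM moved the median of all genes to -0.03 for P1/P2 in lung, -0.20 for P1/P2 in fat, -0.23 for lung/fat in P1 and -0.38 for lung/fat in P2, against -0.12, 0.38, -0.31 and 0.15 in the values reported. With it 451 genes were 4-fold higher and 642 lower for P1/P2 in fat, against 586 and 479, and 254 were higher and 343 lower for lung/fat in P2, against 356 and 207. With the P1 libraries exchanged class I was 2.94 for P1/P2 in lung and 1.44 in fat, class II was 2.46 in lung and 2.38 in fat, and 4 members were higher in fat. For lung/fat in P1 that exchange, added after the data were seen, gave 0.48 for class I and 2.09 for class II, with 1 member higher and 0 lower. A 2-fold rule gave 14 members higher for P1/P2 in lung, 16 in fat, 4 lower for lung/fat in P1 and 3 lower in P2, where 23.3%, 26.0%, 25.3% and 13.3% of all genes passed. Removing the highest Scrublet scores gave 2 members, and adding 1 CPM gave 3 members, lower for lung/fat in P1. Without thinning the class II share was 42.8% in the P1 library labelled fat and 2.53% in fat P2. Lower CPM minimums changed no count by more than 1.5 times. The causes of these shifts were not tested.

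No paired analysis was possible because each group has 1 library. Depth limits the rare members most: 0 UMIs allow up to 2.68 CPM in the P1 library labelled lung, and 164 of its 652 kept barcodes reached 2000 UMIs.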
